A study of Homo sapiens
Mus musculus and Mus musculus and Homo sapiens with 16 samples.

Results

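The nuclear genes for the protein components of the mitochondrial ribosome were examined in REC-1 lymphoma cells and MS-5 stromal cells. They were chosen by name and biotype alone, as protein-coding genes called MRPL or MRPS followed by a number and at most 1 letter A to C. This gave 78 of 58051 genes in the human table, 49 named MRPL, for the large subunit, and 29 named MRPS, for the small subunit, and these names are what the 2 classes below count. The mouse table gave the same 78 symbols among 49671 genes. All members were accounted for: 78 human and 77 mouse members passed the filter on low counts, and mouse Mrpl53 was listed at 0 in all 8 libraries. Mouse Mrpl53 shares 88.0% of its exon bases with other annotated genes, and whether this lowered its count was not tested.

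The study asked which transcripts change when mantle cell lymphoma cells adhere to stroma. REC-1 is a human mantle cell lymphoma line and MS-5 a mouse bone marrow stromal line, each a single established line. After 24 h, 4 libraries were made of each of 4 states. REC-1 cells grew on their own (Sep), floated free in a coculture with the stroma (Susp) or stuck to the stromal layer (Adh), and the stromal line also grew alone (MS-5). No drug or genetic change was given to any group. Adhered cells were not separated from the stroma, so an Adh library holds RNA of both species, and its human and mouse reads were split by sequence.

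The mitochondrial ribosome translates the few proteins that mitochondrial DNA encodes, all of them subunits of the respiratory chain and ATP synthase. Its rRNAs are transcribed inside the organelle (MT-RNR1 in the small subunit, MT-RNR2 in the large), whereas every protein is encoded in the nucleus, made in the cytosol and imported. Many of these proteins have bacterial relatives, and others occur only in mitochondria.

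Human counts ranged from 7758979 to 21467832 per library and mouse counts from 10097555 to 34615602. The labelled cell types matched most of their markers. The 7 B-lineage markers summed to between 5861 and 6924 CPM (counts scaled to a common library size, here after TMM scaling) in the REC-1 libraries. In the human counts the 7 stroma markers summed to 0.257 to 2.10 CPM in Adh, 1.12 to 2.51 CPM in Sep and 1.26 to 2.39 CPM in Susp, with LUM and VCAM1 at 0 throughout. In the mouse counts the stroma markers summed to at least 2862 CPM, with Lum at 0 and Postn at no more than 0.697 CPM. The 6 B-lineage markers other than Ccnd1 summed to 0 in MS-5 alone and to at most 0.0681 CPM in Adh. Ccnd1 went the other way, at 295 to 342 CPM in MS-5 alone and 246 to 323 CPM in Adh, so it did not set the lines apart by presence. Susp replicate 2 stood apart from the other 3 Susp libraries, so the main REC-1 counts, medians and named values are given with and without it. Beside the members, 74 human MRP-named pseudogenes and 1 antisense gene took 0.0222 to 0.0647% of the counts on MRP-named genes.

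Counts on the members made up a small and narrow share of each library. The share was 0.495, 0.480, 0.498 and 0.493% in Sep replicates 1 to 4. It was 0.539, 0.539, 0.548 and 0.570% in Adh, so every Adh library lay above every Sep library. The Susp share was 0.498, 0.619, 0.497 and 0.514%, where only replicate 2 lay above the Adh range and the other 3 lay below it. In the mouse counts the share was 0.287, 0.293, 0.307 and 0.304% in MS-5 alone and 0.285, 0.306, 0.308 and 0.319% in Adh, and these groups overlapped. Each share is relative to the other counts of its species, so a change in the members and an opposite change in other RNA cannot be told apart. Bulk libraries also do not show whether all cells of a line changed or only part of them.

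**Figure D1:**
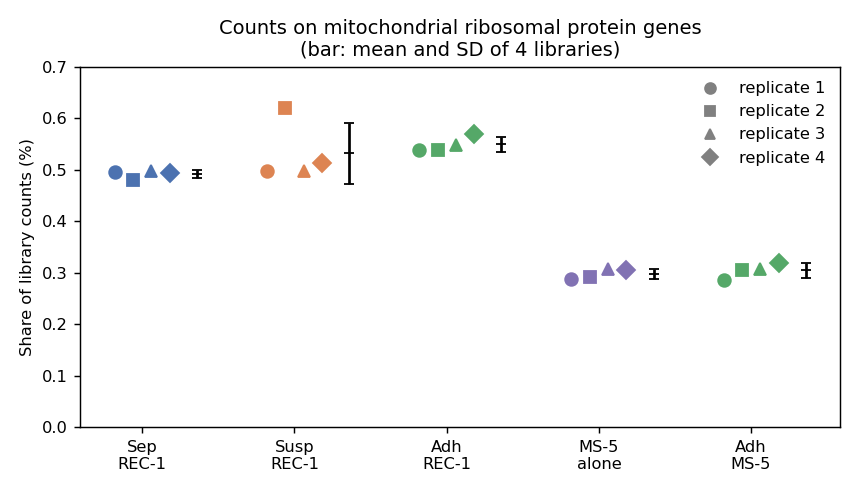
Share of all counts in a library (y axis, percent) that fell on the 78 members, by group and species, 1 marker per library with mean and SD of 4. The 4 Adh libraries lie between 0.539 and 0.570% in the human counts, above the Sep libraries at 0.480 to 0.498%, and Susp replicate 2 stands alone at 0.619%.

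Levels differed widely between members. Per length, in CPM divided by the length of the principal transcript (RPKM), the median over REC-1 groups was 38.4 for the MRPL genes and 41.3 for the MRPS genes. MRPL20, a protein with a bacterial L20 relative, was highest at 204 ± 10.7 RPKM in Sep (SD, n = 4), followed by MRPL3 at 148 ± 8.73 and MRPL21 at 129.5 ± 7.34. The SDs of MRPL3 and MRPL21 did not reach each other, but both lay close together in the order. The lowest were MRPS24 at 1.15 ± 0.693, MRPL38 at 2.34 ± 0.504 and MRPS33 at 2.69 ± 0.442 RPKM. MRPS24 rested on 3 to 20 counts per library and shares 23.2% of its exon bases with the read-through gene URGCP-MRPS24.

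In MS-5 cells alone the order was another one. Mrps6 was highest at 141 ± 14.6 RPKM, then Mrpl42 at 126 ± 8.87 and Mrpl52 at 104 ± 15.0, with SDs that overlapped between neighbours. The lowest detected were Mrpl24 at 4.39 ± 0.537, Mrpl17 at 6.29 ± 0.628 and Mrpl47 at 6.33 ± 0.826 RPKM. Across the 77 members detected in both lines, levels in CPM in Sep and in MS-5 alone correlated with r = 0.31 and rho = 0.36 on the log2 scale, a description across genes that share libraries, depth and annotation. RPKM gave r = 0.08. The annotated transcripts of a gene differ in length between the species, and whether this lowered r was not tested. MRPS27, an RNA-binding protein of the small subunit, took 6.24% of the members' CPM in Sep and 0.839% in MS-5 alone. MRPS24 went the other way, with 0.0159% and 0.676%, although its exon overlap limits the human value. These last 2 genes were chosen after their values were seen.

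Replicates of a member agreed to a median coefficient of variation of 8.83% in Sep, 10.1% in Adh and 16.7% in Susp. Without Susp replicate 2 the Susp value was 6.38%. Members with high-GC transcripts varied most between libraries, and they did so within groups. MRPL12, a stalk protein of the large subunit that is also known to bind the mitochondrial RNA polymerase, had 64.6% GC. Its level was 7.09, 21.0, 17.2 and 22.7 CPM in Sep, 11.02, 40.7, 27.7 and 24.4 CPM in Susp, and 7.74, 21.0, 14.1 and 24.9 CPM in Adh. Replicate 1 was the lowest library of each group, and the groups overlapped. MRPL41, with the highest GC content at 66.7%, ran from 9.29 to 26.5 CPM in Sep, 15.0 to 44.4 CPM in Susp and 8.72 to 27.7 CPM in Adh. MRPL12 shares 69.5% of its exon bases with an overlapping gene, and without strand in the library kit the reads of both cannot be told apart.

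The same ordering by GC appeared in all expressed genes. Relative to the Sep mean, the 39 members with more than the median GC content of 48.2% lay at a median of 0.69 (log2) in Susp replicate 2, against 0.32 for the 39 others. In that library the 10% of all tested genes with the highest GC lay at 0.53 and the 10% with the lowest at -0.35. In Sep replicate 1 the same gene sets lay at -0.48 and 0.14, and in Adh replicate 1 at -0.46 and 0.11. The part of this pattern in single fold changes was not tested, and values from fits with each library's smooth trend on GC content and length removed are given beside the counts.

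**Figure D2:**
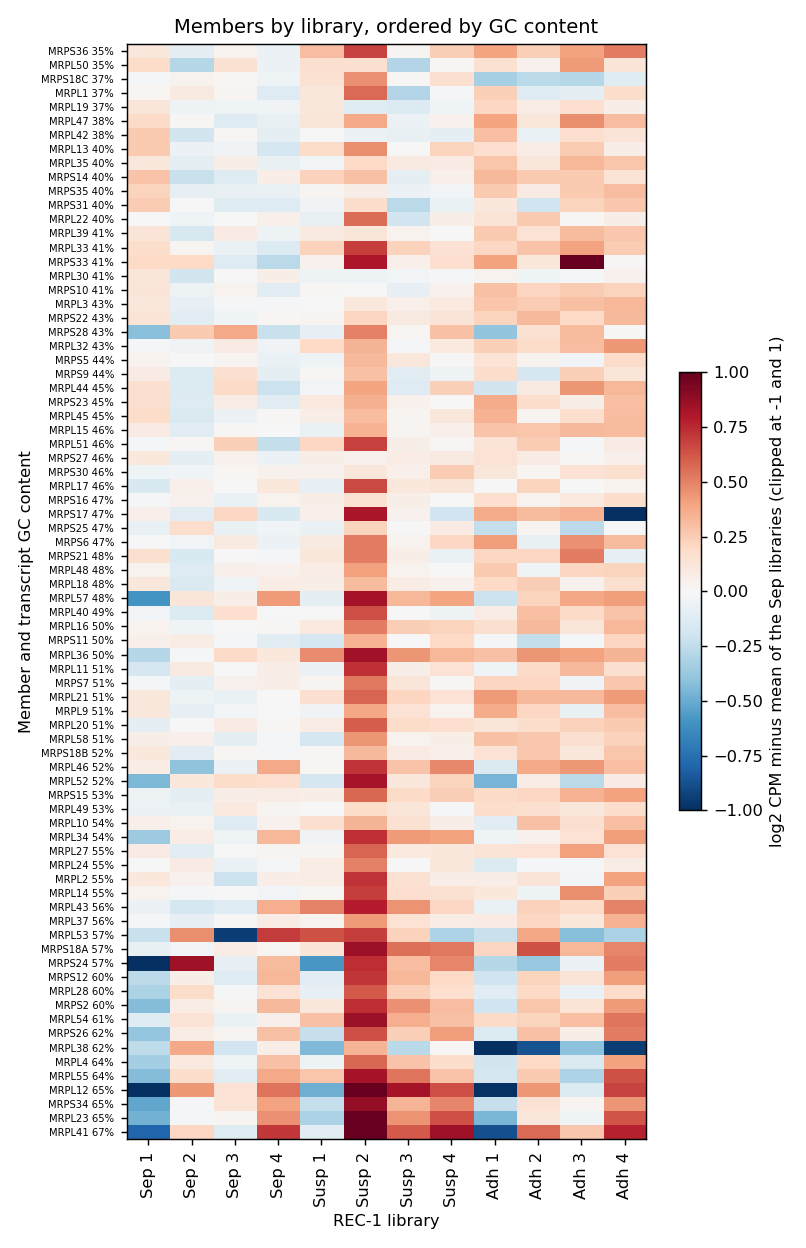
Each of the 78 members (rows, with GC content of the transcript in percent, lowest at the top) in the 12 REC-1 libraries (columns), as log2 CPM minus the mean of the 4 Sep libraries, clipped at -1 and 1. Susp replicate 2 is red in most rows, with a median of 0.51, the GC-rich rows at the bottom vary most between replicates, and the Adh columns have medians of 0.14 to 0.27.

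The promoters of the members were read to see what the rule did not use. Windows from 250 bases before to 50 after the annotated start (GRCh38) were searched on both strands for 3 short motifs of factors linked with genes for mitochondrial proteins. The ETS core CCGGAAG was found in 32 of 78 members (41.0%) and 14.2% of 19432 protein-coding promoters. The YY1 core AAGATGGC was found in 22 members (28.2%) and 4.10% of all promoters, and the NRF1 core GCATGCGC in 7 members (8.97%) and 4.31%. An ETS core running into a YY1 core on the same strand was found in no member and in 4 of all promoters. Other ways of overlapping were not searched. Another protein-coding gene started within 1000 bases upstream on the opposite strand in 26 of 78 human members (33.3%) and 9.45% of all protein-coding genes, and in 22 of 78 mouse members (28.2%) and 7.04%. A match is a description of these letters in this window and not a binding site.

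The 3 genes of the MRPS18 family are shown because they are paralogs, all related to bacterial S18, whose log2 fold changes between Adh and Sep had unlike signs. The windows are chr6:43687742-43688041 (minus strand), chr6:30617590-30617889 (plus strand) and chr4:83455808-83456107 (plus strand) on GRCh38, written 5′ to 3′ on the strand of the gene. Capitals mark the motifs. MRPS18A holds the ETS core from position -31 and the YY1 core from position 10, counted from the start. MRPS18B holds the NRF1 core from -23 and the YY1 core from 24. MRPS18C holds the ETS core from -222 and, on the opposite strand, the NRF1 core from -136.
MRPS18A: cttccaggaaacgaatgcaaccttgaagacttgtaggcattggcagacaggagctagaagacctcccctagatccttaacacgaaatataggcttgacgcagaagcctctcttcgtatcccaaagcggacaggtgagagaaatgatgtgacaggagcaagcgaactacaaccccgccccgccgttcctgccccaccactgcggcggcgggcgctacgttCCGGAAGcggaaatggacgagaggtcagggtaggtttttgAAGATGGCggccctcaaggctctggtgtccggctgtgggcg
MRPS18B: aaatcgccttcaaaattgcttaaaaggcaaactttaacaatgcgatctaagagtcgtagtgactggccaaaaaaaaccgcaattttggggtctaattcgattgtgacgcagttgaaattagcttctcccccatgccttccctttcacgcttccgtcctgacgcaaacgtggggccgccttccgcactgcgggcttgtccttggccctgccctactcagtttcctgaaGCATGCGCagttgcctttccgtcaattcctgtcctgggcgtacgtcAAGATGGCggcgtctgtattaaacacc
MRPS18C: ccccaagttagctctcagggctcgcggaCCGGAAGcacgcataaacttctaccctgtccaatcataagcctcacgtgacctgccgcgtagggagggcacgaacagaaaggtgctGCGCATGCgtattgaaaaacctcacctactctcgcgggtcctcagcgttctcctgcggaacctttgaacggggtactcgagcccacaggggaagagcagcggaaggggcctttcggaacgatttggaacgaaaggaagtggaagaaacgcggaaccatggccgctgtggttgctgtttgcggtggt

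Adhesion was first set against monoculture. Of 78 members, 69 had a positive log2 fold change in Adh against Sep, and the median was 0.17, against -0.003 over all 12861 tested genes. Both name classes shared this, with medians of 0.17 for 49 MRPL and 0.15 for 29 MRPS genes. The size was small: 1 member, MRPL3, rose by edgeR's quasi-likelihood test at an adjusted p of at most 0.05 (1.28% of members, against 1.11% of all genes called higher), and none fell (2.29% of all genes). No member also changed at least 1.5-fold, which 2.4% of all genes did. At an unadjusted p under 0.05, 19 members were higher and 1 lower, or 24.4% and 1.28%, against 9.23% and 11% of all genes. In 19 members every Adh library lay above every Sep library (24.4%, against 7.42% of all genes), and in 2 every Adh library lay below (2.56%, against 8.3%). DESeq2 called 6 members (7.69%), a share near that of all genes it tested (7.57%).

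MRPL3 (ENSG00000114686, chr3:131462212-131502983, minus strand) encodes a core protein of the large subunit with a bacterial L3 relative. It was at 273, 238, 248 and 250.2 CPM in Sep, 252, 272, 261 and 269.7 CPM in Susp, and 306, 301, 311 and 317 CPM in Adh. All 4 Adh libraries lay above all 8 others. The rise from Sep to Adh was 0.29 ± 0.07 (log2, SE), or 1.22-fold, with an adjusted p of 0.0361, and 0.30 ± 0.06 without Susp replicate 2 (adjusted p = 0.00439). The call depended on most of the libraries: leaving out Adh replicate 1, 2, 3 or 4 or Sep replicate 2, 3 or 4 took the adjusted p to between 0.0646 and 0.146, and no member was then called.

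Leaving out Susp replicate 2, which belongs to neither group, raised the count of members called to 17. It changed the shared estimate of the spread, the genes that passed the filter (13084 in place of 12861) and slightly the scaling, and their parts in the count were not told apart. Of these, 16 rose (20.5%, against 5.51% of all genes) and 1 fell (1.28%, against 6.37%), and the median was again 0.17. The fall also passed 1.5-fold, as did 3.97% of all genes. Removing the trend on GC content and length from all 12 libraries gave 15 called members, 14 of them higher, with a median of 0.18. The share of all genes called in that fit is not given here, so this count cannot be set against a background.

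The 11 MRPL genes that rose without Susp replicate 2 were MRPL3, MRPL15, MRPL16, MRPL20, MRPL21, MRPL32, MRPL35, MRPL36, MRPL39, MRPL47 and MRPL54. MRPL21 (ENSG00000197345, chr11:68891276-68903835, minus strand), with a bacterial L21 relative, was at 96.8, 86.4, 85.8 and 90.04 CPM in Sep and 120.3, 112, 112 and 120.3 CPM in Adh. The groups did not overlap, and the difference was 0.38 ± 0.07 without Susp replicate 2 (adjusted p = 0.00223) and 0.37 ± 0.10 with it (adjusted p = 0.0535). MRPL21 and IGHMBP2, its neighbour on the opposite strand, have annotated starts 59 bases apart. MRPL15, with a bacterial L15 relative, was at 187, 164, 178 and 177 CPM in Sep and 215, 214, 221 and 219.8 CPM in Adh. Every Adh library was again higher, by 0.30 ± 0.06 without Susp replicate 2 (adjusted p = 0.00416) and 0.30 ± 0.09 with it (adjusted p = 0.0765). These members were named after their values were seen.

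The 5 MRPS genes that rose in that fit were MRPS10, MRPS15, MRPS18A, MRPS22 and MRPS36. MRPS10 was at 92.2, 81.1, 86.1 and 77.8 CPM in Sep and 103, 97.7, 100.2 and 98.3 CPM in Adh. MRPS36, which is also known as a subunit of the 2-oxoglutarate dehydrogenase complex, was at 28.2, 24.4, 26.6 and 24.9 CPM in Sep and 34.2, 30.6, 34.4 and 37.1 CPM in Adh. In neither did the groups overlap. Their differences were 0.25 ± 0.07 (adjusted p = 0.0359) and 0.39 ± 0.10 (adjusted p = 0.0215) without Susp replicate 2, and 0.24 ± 0.08 (adjusted p = 0.104) and 0.39 ± 0.13 (adjusted p = 0.105) with it. MRPS33 had the largest positive value over 12 libraries, 0.43 ± 0.23 with an adjusted p of 0.312 (0.43 and 0.170 without Susp replicate 2), and 1 library, Adh replicate 3 at 23.0 CPM, lay far above the other 3 at 11.3 to 14.9 CPM.

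MRPL38, a mitochondria-specific protein of the large subunit, was the member that fell without Susp replicate 2. It was at 2.60, 4.10, 2.72 and 3.27 CPM in Sep, 2.26, 3.995, 2.56 and 3.16 CPM in Susp, and 1.28, 1.64, 2.31 and 1.54 CPM in Adh. Every Adh library lay below every Sep library, and Adh replicate 3 overlapped the Susp range. The difference from Sep was -0.92 ± 0.28 (adjusted p = 0.0437) without Susp replicate 2 and -0.93 ± 0.29 (adjusted p = 0.0856) with it. MRPL38 rested on 12 to 65 counts per library and shares 45.1% of its exon bases with other annotated genes. MRPL53 (-0.26 ± 0.39, adjusted p = 0.752) and MRPS18C (-0.26 ± 0.13, adjusted p = 0.291) were the next lowest values, and MRPL53 shares 99.4% of its exon bases with other genes.

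**Figure D3:**
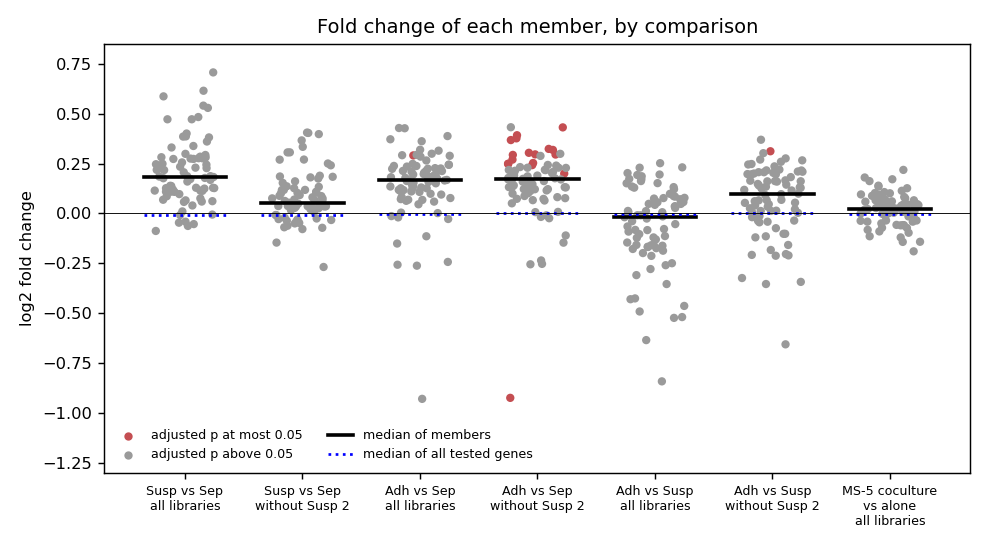
log2 fold change of each tested member (1 point each) in the 4 comparisons, those of REC-1 with and without Susp replicate 2, with red points at an adjusted p of at most 0.05, black bars at the members' median and dotted lines at the median of all tested genes. The Adh against Sep median stays at 0.17 with 1 and then 17 red points, whereas the medians that involve Susp move when its replicate 2 is left out.

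The MRPS18 paralogs, whose promoters are printed above, had values of unlike sign; the differences between paralogs were not tested. All are related to bacterial S18: MRPS18C keeps that place in the small subunit, and MRPS18A was later found in the large one. MRPS18A (ENSG00000096080, chr6:43671202-43687791) was at 22.2, 23.0, 24.7 and 23.8 CPM in Sep, 25.6, 42.5, 34.3 and 33.8 CPM in Susp, and 27.2, 36.4, 29.6 and 32.8 CPM in Adh. All 8 coculture libraries lay above all Sep libraries. MRPS18A was higher by 0.43 ± 0.12 in Adh than in Sep without Susp replicate 2 (adjusted p = 0.0237), and by 0.43 ± 0.14 with it (adjusted p = 0.103). It shares 50.9% of its exon bases with RSPH9, so its value is uncertain.

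MRPS18C (ENSG00000163319, chr4:83455932-83469735) was at 12.6, 13.1, 12.9 and 12.4 CPM in Sep, 14.1, 17.5, 12.9 and 14.2 CPM in Susp, and 10.1, 10.5, 10.4 and 11.7 CPM in Adh. All 4 Adh libraries lay below all 8 others, yet neither difference passed: -0.26 ± 0.13 against Sep (adjusted p = 0.291) and -0.46 ± 0.13 against Susp (adjusted p = 0.0948). They were -0.25 (adjusted p = 0.189) and -0.35 (adjusted p = 0.158) without Susp replicate 2. MRPS18B (ENSG00000204568, chr6:30617840-30626395) was at 118, 101, 111 and 109 CPM in Sep and 121, 132, 118 and 133 CPM in Adh. These groups overlapped, and the difference was 0.20 ± 0.09 (adjusted p = 0.236), and 0.20 without Susp replicate 2 (adjusted p = 0.064). MRPS18C shares 40.2% of its exon bases with ABRAXAS1, and MRPS18B shares none.

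**Figure D4:**
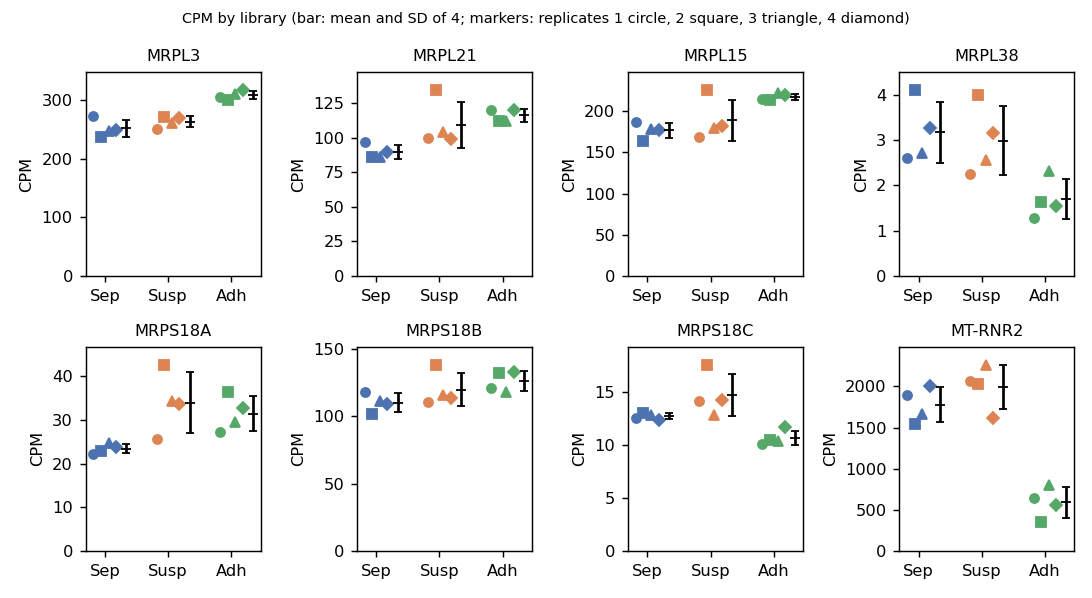
CPM (y axis, from 0) of 7 members and of the mitochondrial rRNA MT-RNR2 in the 12 REC-1 libraries, 1 marker per replicate, with mean and SD of 4. MRPL3, MRPL21 and MRPL15 are higher in Adh than in every Sep library, MRPL38 and MRPS18C are lower, and MT-RNR2 falls to 356 to 808 CPM from 1539.7 to 2010.1 CPM in Sep.

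Suspension in the coculture was then set against monoculture. Of 78 members 71 had a positive log2 fold change in Susp against Sep, with a median of 0.18 against -0.006 over all tested genes, but this median fell to 0.05, with 61 positive, without Susp replicate 2. No member passed an adjusted p of at most 0.05 in edgeR (1.02% of all genes did), and 13 were higher and none lower at an unadjusted p under 0.05 (16.7%, against 9.32% higher and 7.36% lower of all genes). DESeq2 called 3 members (3.90%, against 3.5% of its genes), MRPL36, MRPL54 and MRPS18A. Susp libraries lay wholly above Sep in 6 members (7.69%, against 5.5%) and wholly below in none (against 5.85%). Without Susp replicate 2, no member passed in edgeR either (1.18% of all genes did), with 6 higher and none lower at an unadjusted p under 0.05 (7.69%, against 5.69% and 5.47%).

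The largest positive values of this comparison belonged to GC-rich members. MRPL41 was at 0.71 ± 0.35 (adjusted p = 0.310), MRPL12 at 0.62 ± 0.38 (adjusted p = 0.404) and MRPL23, a protein near the exit of the peptide tunnel, at 0.59 ± 0.28 (adjusted p = 0.305). All 3 were highest in Susp replicate 2 and overlapped between the groups. Without that library they fell to 0.40, 0.31 and 0.27, and the largest value was then that of MRPS18A, 0.41 (adjusted p = 0.138). The lowest values were small: -0.09 ± 0.26 for MRPL38, -0.06 ± 0.10 for MRPL42 and -0.05 ± 0.14 for MRPS31, with adjusted p of 0.882, 0.764 and 0.859, and -0.27, -0.07 and -0.15 without Susp replicate 2. Across the 78 members, log2 fold change and GC content correlated with r = 0.62, and with r = 0.50 without Susp replicate 2, a description across genes of the same libraries. Over all tested genes with a known GC content r was 0.36, and 0.22 without that library.

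MRPL36, with a bacterial L36 relative, and MRPL54 showed the difference in every library. MRPL36 was at 15.3, 18.4, 21.3 and 20.1 CPM in Sep and 25.9, 33.4, 25.4 and 23.5 CPM in Susp. MRPL54 was at 50.7, 60.7, 52.7 and 57.0 CPM in Sep and 67.8, 100.4, 71.0 and 67.6 CPM in Susp. Both had Susp above Sep throughout, with values of 0.53 ± 0.13 (adjusted p = 0.0694) and 0.47 ± 0.13 (adjusted p = 0.0941), and 0.40 and 0.31 without Susp replicate 2. MRPL36 and MRPL54 were named after their values were seen.

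Within the coculture, adhered and suspended cells were compared directly, the comparison on which the study centred. No member passed in edgeR (0.941% of all genes did), and 36 of 78 had a positive value with a median of -0.02, against -0.005 over all genes. At an unadjusted p under 0.05, 5 members were higher and 3 lower (6.41% and 3.85%, against 7.84% and 10.2%). DESeq2 called 3 members, MRPL3, MRPS10 and MRPS18C (3.85%, against 3.97% of all genes). Adh lay wholly above Susp in 4 members (5.13%, against 5.61%) and wholly below in 1 (1.28%, against 5.84%), shares that were near or under the background.

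Without Susp replicate 2 the median turned to 0.10 and 57 members were positive. MRPL15 then passed, higher by 0.31 ± 0.06 (adjusted p = 0.0236, 1.28% of members against 1.2% of all genes). Adh lay wholly above the 3 remaining Susp libraries in 12 members (15.4%, against 8.67%) and wholly below in 1 (1.28%, against 9.21%). MRPL15 itself was at 168, 225, 180.1 and 182 CPM in Susp, so that replicate 2 was above all 4 Adh libraries and the other 3 were below them.

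The largest positive values over all libraries were those of MRPS10 (0.25 ± 0.08, adjusted p = 0.134), MRPS35 (0.23 ± 0.09, adjusted p = 0.198) and MRPL3 (0.23 ± 0.07, adjusted p = 0.127). MRPS35, a mitochondria-specific protein of the small subunit, was at 201, 205, 189 and 193 CPM in Susp and 236, 208, 236 and 244 CPM in Adh. In these 3 members the groups did not overlap. The lowest values were those of MRPL38 (-0.84 ± 0.29, adjusted p = 0.158), MRPL12 (-0.64 ± 0.39, adjusted p = 0.391) and MRPL23 (-0.52 ± 0.29, adjusted p = 0.340), in which they did. Without Susp replicate 2 the first 3 were at 0.27, 0.27 and 0.26 and the last 3 at -0.66, -0.32 and -0.20, and none passed. MRPS33, at 0.37, then had the largest value (adjusted p = 0.362). In Adh against Susp, log2 fold change and GC content correlated across the 78 members with r = -0.67, and with r = -0.60 without Susp replicate 2. Over all tested genes with a known GC content r was -0.43 and -0.29. The part of GC content in the values named here was not tested.

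The rRNAs of the mitochondrial ribosome were lower in Adh, and the fall was not particular to them. Against Susp the mRNAs of the mitochondrial genome were lower as well, by 1.38 (MT-ND4L) to 1.81 (MT-CO2) on the log2 scale. MT-RNR2 was at 1902, 1539.7, 1663 and 2010.1 CPM in Sep, 2072, 2024, 2256 and 1613 CPM in Susp, and 645, 356, 808 and 559.7 CPM in Adh. Every Adh library lay far below all others, and MT-RNR2 fell by 1.59 ± 0.18 (log2) against Sep (adjusted p = 0.000226) and by 1.75 ± 0.18 against Susp (adjusted p = 0.000124). The falls were 1.58 and 1.73 without Susp replicate 2 (adjusted p = 6.36e-05 and 0.000127). MT-RNR1 was at 320.4, 226, 261 and 383 CPM in Sep and 114, 74.7, 275 and 113 CPM in Adh, where replicate 3 overlapped Sep. Its difference of -1.05 ± 0.30 from Sep did not pass over 12 libraries (adjusted p = 0.0635) and did without Susp replicate 2 (adjusted p = 0.0288). Its difference from Susp, -1.15 ± 0.30, passed neither over 12 libraries (adjusted p = 0.0753) nor without Susp replicate 2 (adjusted p = 0.0917). Libraries were made from poly-A RNA, so these values count the polyadenylated part of each rRNA. Adh libraries are also the only REC-1 libraries with mouse RNA in them, and this and adhesion cannot be told apart.

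Other genes of mitochondrial translation were counted from lists. Of 6 further ribosome-associated genes all were positive in Adh against Sep, with a median of 0.21, and none passed. Of 14 translation factors 12 were positive with a median of 0.14, and of 26 assembly factors 19 with a median of 0.10, again with none passing. The 20 mitochondrial aminoacyl-tRNA synthetases, which charge tRNAs, had a median of 0.003 with 11 positive. Among 11 genes of mitochondrial transcription and RNA upkeep 8 were positive, and SLIRP, which stabilizes mitochondrial mRNAs, rose by 0.47 ± 0.11 (adjusted p = 0.0327). SLIRP was at 53.7, 54.97, 63.5 and 54.9 CPM in Sep and 83.5, 76.5, 84.4 and 69.3 CPM in Adh, without overlap.

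Without Susp replicate 2, 9 of the 77 listed genes passed in Adh against Sep (11.7%), a share near that of all tested genes (11.9%). With all libraries 1 passed (1.30%, against 3.41%). The 8 added genes are given as values. DAP3 (0.23, adjusted p = 0.0432) and CHCHD1 (0.31, adjusted p = 0.0419) are small-subunit proteins without an MRP name. The elongation factor TUFM (0.23, adjusted p = 0.0448), the arginine synthetase RARS2 (0.28, adjusted p = 0.0474) and C1QBP (0.31, adjusted p = 0.00439) were higher as well. SSBP1, which binds single-stranded mitochondrial DNA, rose by 0.34 (adjusted p = 0.0212), and TFB2M, a transcription initiation factor, by 0.38 (adjusted p = 0.0205). MTG1, a GTPase of ribosome assembly, fell by 0.98 (adjusted p = 0.0290). No gene of these 5 lists passed in the 2 comparisons with Susp, with or without its replicate 2.

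In the mouse counts, stroma that carried REC-1 was set against stroma grown alone. No member passed (0.77% of all 12201 genes did), and none reached an unadjusted p under 0.05, against 11.3% of all genes. DESeq2 called none as well, against 2.17% of its genes. Of 77 members 50 were positive, with a median of 0.02 against -0.002 over all genes. Adh lay wholly above MS-5 alone in 1 member, Mrpl41 (1.30%, against 3.06%), and wholly below in none (against 3.68%).

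The extreme values in MS-5 were small and within the spread of the libraries. Mrpl24 was at 5.16, 5.37, 6.31 and 6.65 CPM alone and 6.85, 7.01, 6.01 and 7.56 CPM in coculture, a difference of 0.22 ± 0.14 (adjusted p = 0.602). Mrps15 (0.18 ± 0.09, adjusted p = 0.506) and Mrps35 (0.17 ± 0.09, adjusted p = 0.496) followed. At the other end, Mrpl37 was at 26.3, 27.1, 33.9 and 29.3 CPM alone and 24.1, 25.9, 24.7 and 27.8 CPM in coculture, a difference of -0.19 ± 0.09 (adjusted p = 0.459). Mrps6 (-0.14 ± 0.08, adjusted p = 0.520) and Mrps18b (-0.14 ± 0.10, adjusted p = 0.656) were next, and in all 6 the groups overlapped. Mrps18a was at -0.07 ± 0.09, Mrps18c at 0.01 ± 0.10 and Mrpl12 at -0.001 ± 0.10, with adjusted p of 0.821, 0.992 and 0.998. The rRNA mt-Rnr2 was at 121, 76.4, 104 and 89.0 CPM alone and 69.1, 37.5, 97.6 and 75.9 CPM in coculture, and its difference of -0.48 ± 0.21 did not pass (adjusted p = 0.389), nor did that of mt-Rnr1, -0.42 ± 0.23 (adjusted p = 0.531).

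The response of REC-1 (Adh against Sep) and that of MS-5 (coculture against alone) were then compared gene by gene in 1 model, over 8492 genes with the same symbol. No member differed at an adjusted p of at most 0.05 (4.62% of all genes did), and 16 of 76 did at an unadjusted p under 0.05 (21.1%, against 20.2%). The value was higher in REC-1 for 67 members, with a median difference of 0.15 against 0.02 over all genes. Both responses use the same 4 Adh libraries, whose human and mouse counts were measured together. Since the Adh columns pair by construction, a fit with the replicate number as a block bears on the count: it called 4 members (5.26%, against 9.06% of all genes), MRPS18A, MRPS6, MRPL37 and MRPL38. Whether a number also joins the Sep and MS-5 libraries is not given in the labels. Without the block MRPS18A came nearest to the threshold: 0.43 in REC-1 and -0.07 in MS-5, a difference of 0.50 ± 0.14 (adjusted p = 0.0525). MRPL37, at 0.19 and -0.19, differed by 0.38 ± 0.11 (adjusted p = 0.0599). MRPL38, at -0.93 and -0.05, differed by -0.90 ± 0.28 (adjusted p = 0.0677), and MRPS6, at 0.29 and -0.14, by 0.44 ± 0.14 (adjusted p = 0.0858). With the block the differences of MRPS18A, MRPL37, MRPL38 and MRPS6 were 0.50, 0.38, -0.89 and 0.43, with adjusted p of 0.0186, 0.0215, 0.0308 and 0.0206.

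**Figure D5:**
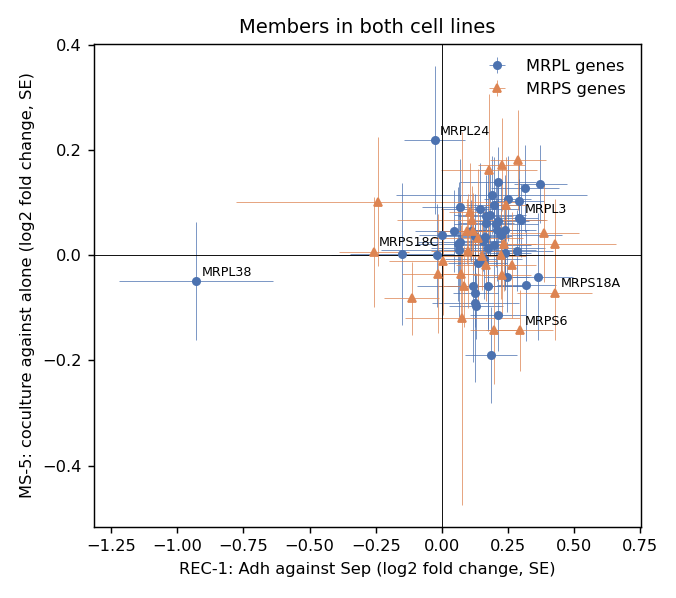
log2 fold change with SE of each member tested in both lines, Adh against Sep in REC-1 (x axis) and coculture against alone in MS-5 (y axis), MRPL and MRPS genes by colour. Most points lie right of 0 on the x axis, where 69 of 77 are positive, and close to 0 on the y axis, where all lie between -0.19 and 0.22.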

How the data were processed

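The tables used here hold RNA-seq counts per gene for 16 libraries. Per the labels and the methods, the authors purified poly-A RNA with TruSeq reagents, assigned pairs to human or mouse in Xenome, mapped each species to GRCh38 or GRCm38 using STAR 2.5.1b, and counted uniquely mapped fragments with featureCounts of Subread 1.5.2. The deposited values were whole-number counts per gene, not normalized, and were used as such. Another 20 columns of other samples were not used.

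In R 4.3.3 with edgeR 4.0.16, genes were filtered with filterByExpr and scaled by TMM, and contrasts were tested with the quasi-likelihood F-test in 1 model of 12 REC-1 libraries and 1 of 8 MS-5 libraries, with Benjamini-Hochberg adjustment over all tested genes. A gene passed at an adjusted p of at most 0.05, and its fold change was also held against 1.5, the study's minimum. Every adjusted p here is from this test unless DESeq2 1.42.0, an alternative, is named. CPM use the TMM-scaled library size. The main fits of all libraries, and those with the GC and length trend removed, were tested on simulated data with changes planted in Adh. The other settings and the model that compares the species were not tested this way.

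Members and lists were chosen with earlier results of these data known. Genes named for a comparison were those that passed, else the 3 largest values in each direction, with the 3 highest and lowest RPKM, the MRPS18 genes, MRPL12 and the rRNAs; others are said to be chosen later. Transcripts, positions and overlaps came from GENCODE 44 and M21, later than the authors' annotation. The study describes its RNA-seq as 4 independent experiments, and the labels do not say which libraries came from the same one. In no comparison did all 4 pairs of same-numbered libraries deviate together (r over 0.1), the most being 3 of 4 in Adh against Sep, so they were not treated as pairs. The libraries numbered 1 did so in every comparison (r of 0.286 to 0.321). Whether the numbers mark pairs is therefore not settled, and fits with a replicate block are given as alternatives. No 2 replicates agreed within sampling noise (chi-square per degree of freedom at least 4.19).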

Additional observations from a re-analysis of the deposited data

Results flagged for a closer look

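Susp replicate 2 lay far from the other 3 Susp libraries in 2 measures of the whole set. Members took 0.619% of its counts, against 0.497 to 0.514% in the others. Their median log2 deviation from the Sep mean was 0.51 in it, against 0.03 to 0.11. Of 78 members, 65 lay above every Sep library in Susp replicate 2, and 14 to 31 did in the other Susp libraries. The share of all genes that did so was not computed, so these counts describe the libraries and cannot be read as a result about the members.

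Among single genes, MRPS33 was at 19.8 CPM in Susp replicate 2, against 11.5 to 12.6 CPM in the other Susp libraries. MRPS35 was at 230.3 CPM in Sep replicate 1, against 186 to 188 CPM in the other Sep libraries. Of 73 groups of 4 libraries checked for a distant library these 4 were found, and chance gives about 1 in 20.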

How the results depend on the processing

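The members' median in Adh against Susp was -0.02 over all libraries, 0.10 without Susp replicate 2, 0.04 with the trend on GC content and length removed, and 0.13 over 11 libraries with that trend removed. In Susp against Sep it fell from 0.18 to 0.05 without Susp replicate 2. The spread of the median between replicates was 0.133 (SD) with that library and 0.0416 without it. Against the smaller spread, 3 of 23 recomputed medians moved in Adh against Sep (range 0.15 to 0.22), 9 of 22 in Adh against Susp and 9 of 22 in Susp against Sep. Against the larger, 1 of these moved. Settings that leave out Susp replicate 2 together with another change, or remove a GC trend, were chosen after seeing the data.

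In Adh against Sep, the members called at an adjusted p of at most 0.05 (1 in the report) were 0 with upper-quartile normalization, 3 with a replicate block, 6 with DESeq2, 6 with the exon-length trend removed and 16 when a replicate block was added to that. They were 7 in a model of the 2 groups alone, 15 with the GC and length trend removed and 17 when a replicate block was added to that. Over 11 libraries they were 29 with the GC and length trend removed, 27 with a replicate block and 19 with DESeq2. A change of at least 1.5-fold (0 members in the report) was found in 1 member with DESeq2, with the GC trend removed and in the last 3 settings, and 1 member passed when no fold was asked. In Adh against Susp the count (0 in the report) was 1 with a replicate block, 3 with DESeq2, 4 without a filter, 2 and 8 with the exon-length trend removed without and with the block, and 1 and 3 with the GC trend. Over 11 libraries it was 7 with the GC trend, 10 with the block and 3 with DESeq2. The 1.5-fold count was 1 with the block and 1 without a filter. In Susp against Sep the count (0) was 6 with a replicate block, 3 with DESeq2, 9 without a filter, 6 with exon length and block, and 1 with the GC trend, with or without the block. It was 5 and 1 over 11 libraries with the block and with DESeq2. The 1.5-fold count was 2 with the block, 3 without a filter and 1 with exon length and block. In MS-5 it was 2 with the GC trend and block, and the difference between species 4 with the block. For most of these settings the share of all genes called is not given, so the counts cannot be read as a result about the members. The cause of these shifts was not tested.

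Leaving out 1 library at a time, the count ranged from 0 to 17 in Adh against Sep (fold of 1.5: 0 to 1), the highest without Susp replicate 2 and 3 without Sep replicate 1. It ranged from 0 to 1 in Adh against Susp and, for both counts, from 0 to 1 in Susp against Sep, where Susp replicate 1 gave the 1. In MS-5 it was 0. The share of all genes called in Adh against Sep, in either direction, also rose without Susp replicate 2, from 3.41 to 11.9%. For the other libraries left out this share is not given, so those counts cannot be read as a result about the members.

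Single values that changed sign did not pass in either setting. Adh against Susp: MRPL23 turned to 0.10 over 11 libraries with the GC trend removed. MRPS18A turned to 0.0569 with the exon-length trend removed and 0.0615 with the block added, ranged from -0.228 to 0.0260 with 1 library left out (the highest without Susp replicate 2), and turned to 0.13, 0.13 and 0.13 with the GC trend removed, with the block added and over 11 libraries. Susp against Sep: MRPL42 turned to 0.12 and 0.13 with exon length, and 0.38, 0.37 and 0.11 with the GC trend. MRPS18B turned to -0.0223 and -0.0174, and to -0.00322, -0.00156 and -0.00712, under the same 5 settings. MT-RNR1 turned to -0.21 and MT-RNR2 to -0.0171 over 11 libraries with the replicate block. Counting error limits members at a few CPM, such as MRPL38, MRPL53 and MRPS24.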
